A study of Mus musculus with 12 samples.

Results

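The 10 genes described here are 8 genes of the antioxidant response (Nqo1, Hmox1, Slc7a11, Gclc, Gclm, Txnrd1, Srxn1 and Gpx2) and the metallothionein genes Mt1 and Mt2. They were taken by symbol from colon RNA-seq read counts that list 54532 genes, and all 10 were among the 17658 genes with enough counts to be tested. The counts come from 12 male C57BL/6 mice that were 6 weeks old on arrival and had 1 week to adapt, with 3 mice in each of 4 groups. Con mice had no DSS and no UA (the methods give them a vehicle by gavage, the labels call them untreated). The mice of the DSS group drank 3% (w/v) dextran sulfate sodium, a polymer that injures the colon epithelium, over 5 days. Per the methods, the mice of this group also had the vehicle by gavage. Mice of the UA+DSS group had the same DSS and also UA (ursolic acid, a triterpenoid of many fruit peels) by gavage, 200 mg/kg for 7 days from 1 day before DSS. Mice of the DSS+UA group had the same dose for 4 days, begun 3 days into DSS. These days of UA are those of the methods, and the discussion of the paper gives longer times for both groups. The piece of colon taken for RNA is not stated in the sources used here, and the libraries are whole tissue.

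In the textbook account, the transcription factor NRF2 (gene Nfe2l2) is held low by KEAP1 and, when oxidants or electrophiles modify KEAP1, binds antioxidant response elements together with small MAF proteins, while BACH1 competes for the same elements. Its targets reduce quinones, break down heme, import cystine and make glutathione, and feed electrons to thioredoxin and the peroxide-reducing enzymes. Metallothioneins are small cysteine-rich proteins that bind zinc and copper, and their genes are switched on by metals through MTF1 and metal response elements, and by glucocorticoids and inflammatory cytokines.

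Levels are given as CPM, read counts scaled to a common library size with TMM factors. Total counts per library were 15566216 to 19498383, and the members had from 8 counts (Mt2 in Con 3) to 32420 counts (Gpx2 in DSS+UA 1) in a library. Libraries carry the name of their group and a number. Differences are log2 fold changes with their standard error (SE) from edgeR (quasi-likelihood, all 12 libraries in 1 fit), with Benjamini-Hochberg adjustment over the 17658 genes. A gene is called, and said to rise or fall, at an adjusted p under 0.05. The p-values set each difference against the spread between mice within groups. This spread is estimated over all 4 groups of 3 together, so libraries outside a comparison also enter its test. In whole tissue, fewer cells of a type and less RNA per cell cannot be told apart.

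Libraries stood apart in several ways that touch the members. The summed level of 7 neutrophil markers (S100a8, S100a9, Csf3r, Cxcr2, Retnlg, Ly6g and Mmp8) was 17954 CPM in DSS 2, against 887 and 984 CPM in the other DSS libraries. The summed level of 6 pancreatic acinar markers was 13342 CPM in DSS 3 and at most 554 CPM in any other library. The number of members called was 6 in DSS against Con and 3 in UA+DSS against DSS, both without DSS 2 and without DSS 3. Epithelial markers, which define the labelled tissue, were present in all 12 libraries (8 genes, 7239.7 to 23759.6 CPM in sum). The share of counts in mitochondrial genes was 4.46% to 9.53% in Con, 1.23% to 2.93% in DSS, 4.21% to 5.58% in UA+DSS and 2.48% to 3.03% in DSS+UA. A colon position score was formed as the mean log2 CPM of 5 Hox genes of the rectal end minus that of 6 Hox genes of the caecal end. It was -5.70 to -4.16 in UA+DSS, 0.37 to 3.10 in DSS, 4.11 to 5.06 in DSS+UA and -3.03 to 5.53 in Con. The 3 DSS-treated groups did not overlap in this score, so treatment and colon position cannot be told apart among them.

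**Figure D1:**
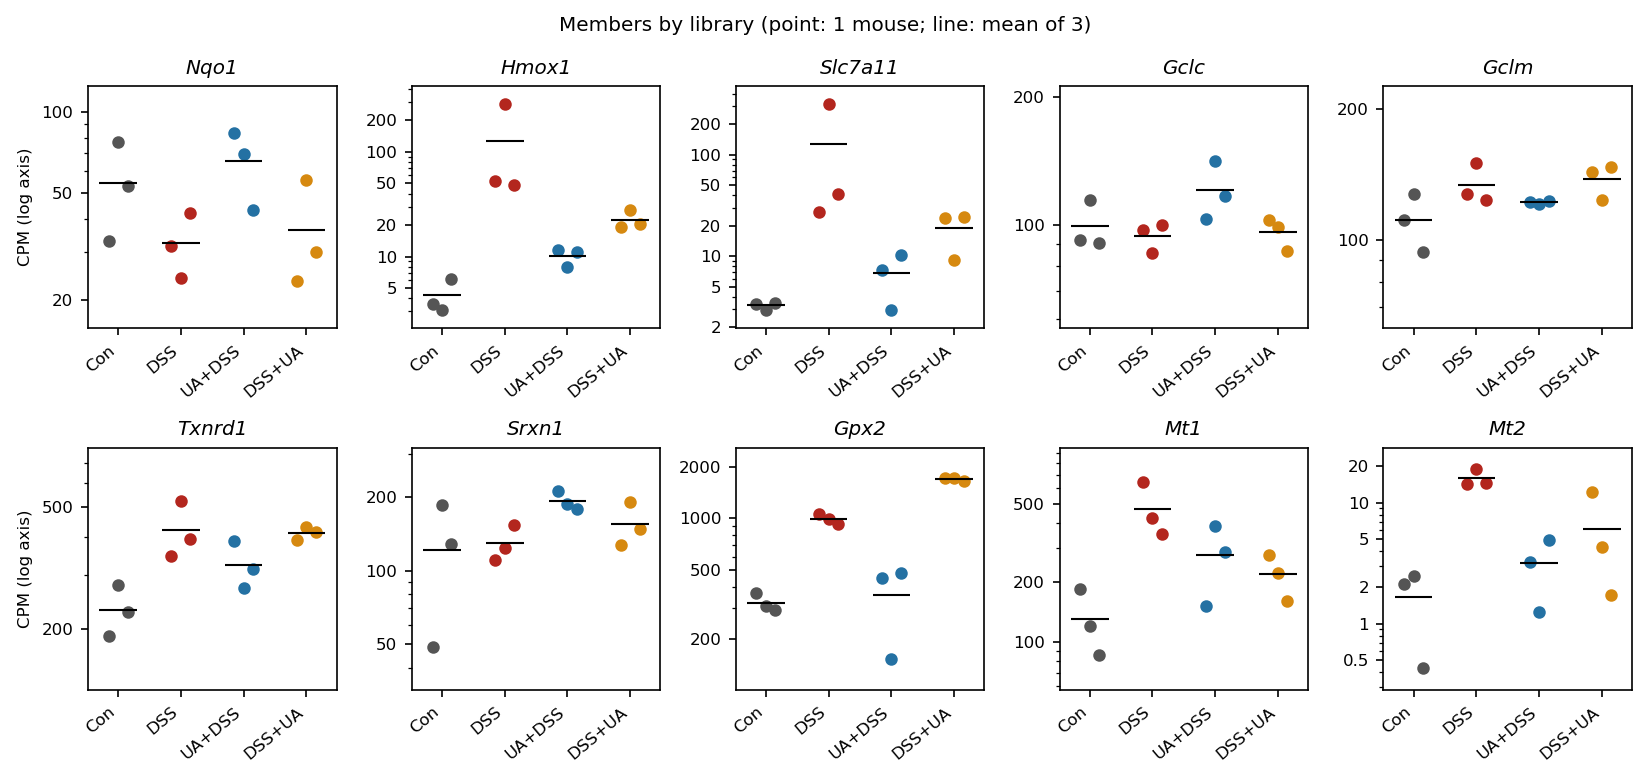
Level of each of the 10 genes in CPM (log axis, own scale in each panel) by group, with 1 point per mouse and a line at the mean of 3. Hmox1 is ordered without overlap from Con (3.11 to 6.10 CPM) through UA+DSS and DSS+UA to DSS (48.3 to 284 CPM), Gpx2 is highest in DSS+UA (1639.7 to 1722 CPM), and Gclc and Gclm stay between 85.6 and 150.4 CPM throughout.

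DSS against Con asks which of these genes differ in chemically injured colon. Of the 10 members, 6 rose in DSS and none fell, a larger share than the 26.5% of all tested genes called and the 13.9% called higher. The 6 were Hmox1, Slc7a11, Mt2, Mt1, Gpx2 and Txnrd1, and the same 6 had no overlap between the groups, against 41.3% of all tested genes. Their rises ran from 1.82-fold for Txnrd1 to 39.0-fold for Slc7a11. Nqo1, Gclc, Gclm and Srxn1, which include the most used reporter of NRF2 activity and both subunits of the rate-limiting enzyme of glutathione synthesis, were not called and overlapped between the groups. The median log2 fold change was 1.24 over the 10 members and -0.03 over all tested genes.

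Hmox1 (ENSMUSG00000005413, chr8:75093621-75100589 on GRCm38) encodes heme oxygenase 1, which opens the heme ring to biliverdin, iron and carbon monoxide. Its level was 3.57, 3.11 and 6.10 CPM in Con and 52.4, 284 and 48.3 CPM in DSS. DSS 2 was the highest by far, and the lowest DSS library still lay far above the highest Con library. The log2 fold change was 4.91 (SE 0.70, edgeR adjusted p = 0.00242), or 30.0-fold. Without DSS 2 it was 3.55 and still called.

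Slc7a11 (ENSMUSG00000027737, chr3:49892526-50443614), the light chain of the cystine-glutamate exchanger that supplies cysteine for glutathione, showed the same shape. It was at 3.41, 2.995 and 3.48 CPM in Con and at 27.3, 318 and 41.4 CPM in DSS. DSS 2 again stood above the other DSS libraries, and the groups did not overlap. The log2 fold change was 5.29 (SE 0.97, edgeR adjusted p = 0.00519), and 3.37 without DSS 2, still called.

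Both genes were highest in the library with the most neutrophil and macrophage RNA. Of the 7 neutrophil markers 6 were called higher in DSS than in Con, with a summed level of 9.26 to 114 CPM in Con. Of 10 monocyte and macrophage markers (Cd68, Adgre1, Csf1r, Cd14, Lyz2, Fcgr1, C1qa, C1qb, C1qc and Mrc1) 9 were called higher, and their sum was 542, 223 and 549.6 CPM in Con and 2613, 3843 and 1486 CPM in DSS. No marker of either list was at 0 in all 3 libraries of a group. Per 1000 CPM of the macrophage markers, Hmox1 was 6.58, 13.9 and 11.1 in Con and 20.0, 73.8 and 32.5 in DSS, so the groups did not overlap on this scale either. Slc7a11 on the same scale was 6.29, 13.4 and 6.32 in Con and 10.4, 82.6 and 27.9 in DSS, where DSS 1 lay below Con 2. The part of these cells in the rises was not tested further.

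**Figure D2:**
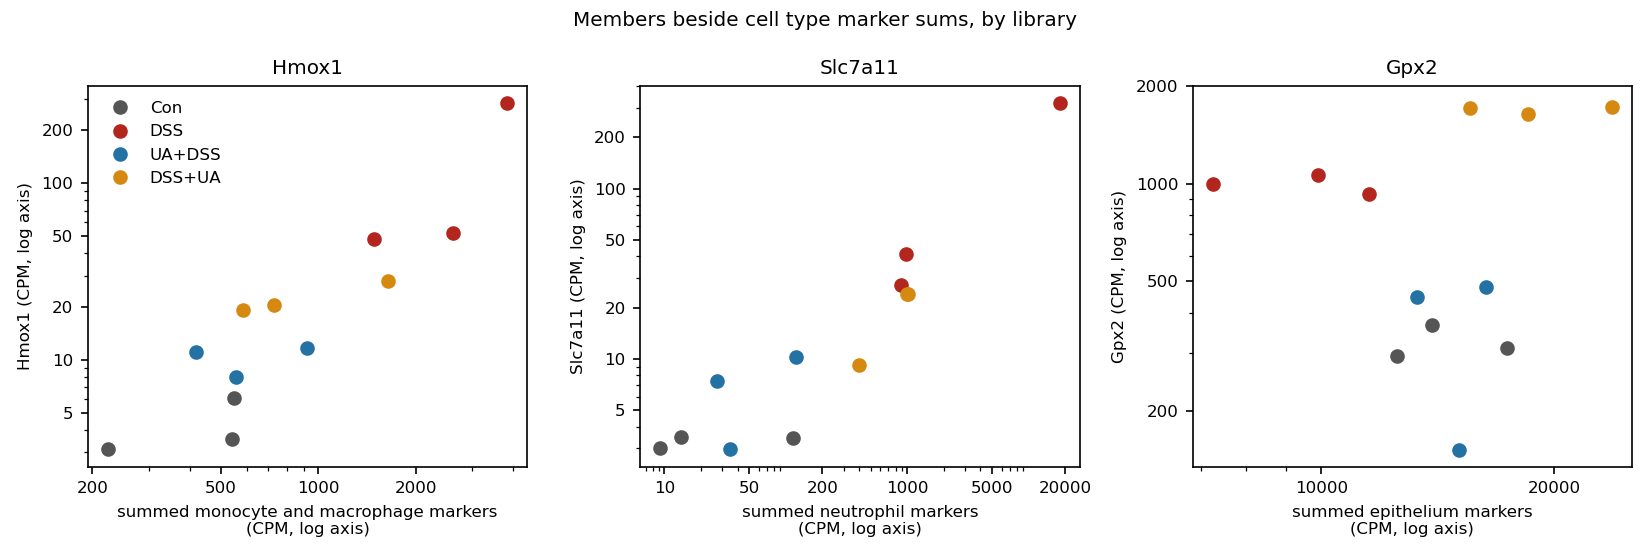
Level (CPM, log axis) in each library against a summed marker level (CPM, log axis), coloured by group: Hmox1 against monocyte and macrophage markers, Slc7a11 against neutrophil markers and Gpx2 against epithelium markers. DSS 2 is at the top right for Hmox1 (284 CPM) and Slc7a11 (318 CPM), DSS+UA 1 and 3 lie on each other in the panel of Slc7a11 and neutrophil markers, and the DSS and DSS+UA libraries have the highest Gpx2 at both the lowest and the highest epithelium sums.

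In CPM the glutamate-cysteine ligase subunits did not move with the cystine carrier. Gclc (ENSMUSG00000032350, chr9:77754535-77794485), the catalytic subunit, was at 92.0, 114 and 90.8 CPM in Con and at 97.2, 85.6 and 100.1 CPM in DSS, a log2 fold change of -0.07 (SE 0.16, 95% interval -0.38 to 0.24, edgeR adjusted p = 0.757). Gclm (ENSMUSG00000028124, chr3:122245557-122270732), the modifier subunit, was at 111, 128 and 94.0 CPM in Con and at 128, 150.4 and 124 CPM in DSS, a log2 fold change of 0.27 (SE 0.15, 95% interval -0.02 to 0.57, edgeR adjusted p = 0.188). Both intervals lie far under the change of Slc7a11 in the same libraries. Per 1000 CPM of the 8 epithelium markers, whose sum was lower in DSS, both subunits were higher in DSS without overlap. On this scale Gclc was 6.59 to 7.24 in Con and 8.69 to 11.8 in DSS, and Gclm 7.34 to 7.97 and 10.7 to 20.8. Per 1000 CPM of the monocyte and macrophage markers, whose sum was higher in DSS, both were lower in DSS without overlap. There Gclc was 165 to 513 in Con and 22.3 to 67.3 in DSS, and Gclm 171 to 571 and 39.1 to 83.1. The direction thus depended on the marker list.

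Gpx2 (ENSMUSG00000042808, chr12:76792333-76795554), the glutathione peroxidase of the gastrointestinal epithelium, was at 368, 312 and 294 CPM in Con and at 1067, 995 and 926 CPM in DSS. The DSS libraries were close to each other and all far above Con. It rose by a log2 fold change of 1.62 (SE 0.35, edgeR adjusted p = 0.00817). The sum of 8 epithelium markers went the other way, at 13899, 17371 and 12534 CPM in Con and 9914, 7239.7 and 11518 CPM in DSS, with 1 of the 8 called lower and none higher. Per 1000 CPM of these markers Gpx2 was 18.0 to 26.5 in Con and 80.4 to 137 in DSS.

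Txnrd1 (ENSMUSG00000020250, chr10:82833951-82897712), the cytosolic reductase that keeps thioredoxin reduced, was at 189, 277 and 226 CPM in Con and at 347, 523 and 392 CPM in DSS. All 3 DSS libraries were above all 3 Con libraries. The log2 fold change of 0.87 (SE 0.21, edgeR adjusted p = 0.0148) was not called when only these groups were fitted (adjusted p = 0.065, the highest of 20 alternatives that began at 0.000878). Srxn1 (ENSMUSG00000032802, chr2:152105516-152111376), the sulfiredoxin that repairs over-oxidised peroxiredoxins, was at 48.8, 186 and 129 CPM in Con and at 110.2, 124 and 154 CPM in DSS, so the DSS libraries lay inside the range of Con. Its log2 fold change was 0.09 (SE 0.37, edgeR adjusted p = 0.871), -0.29 without Con 1 and 0.54 without Con 2, and 0.56 (adjusted p = 0.0468, called) with the colon position score as a covariate. Per 1000 CPM of the epithelium markers Srxn1 was 3.51 to 10.7 in Con and 11.1 to 17.1 in DSS. Per 1000 CPM of the monocyte and macrophage markers it was 89.9 to 833 in Con and 32.3 to 103 in DSS, with overlap.

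Nqo1 (ENSMUSG00000003849, chr8:107388225-107403206), the quinone reductase that is the usual readout of NRF2 activity, was at 33.0, 77.2 and 53.1 CPM in Con and at 31.7, 24.0 and 42.0 CPM in DSS. DSS 1 and DSS 2 were below every Con library and DSS 3 was not. Its log2 fold change was -0.74 (SE 0.39, 95% interval -1.51 to 0.03, edgeR adjusted p = 0.178). Per 1000 CPM of the epithelium markers Nqo1 was 2.37 to 4.44 in Con and 3.19 to 3.65 in DSS, with overlap. Con 1 had the lowest Nqo1 and Srxn1 of the Con libraries and also the highest position score of all 12 (5.53, against -3.03 and -1.83 in Con 2 and Con 3). The part of position in the Con spread was not tested.

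The metallothionein genes lie side by side on chromosome 8, with 5513 bases from the end of Mt2 (ENSMUSG00000031762, chr8:94172664-94173568) to the start of Mt1 (ENSMUSG00000031765, chr8:94179082-94180327), both on the plus strand. Their promoters are shown because both genes rose in DSS and metal response elements are the textbook switch of this pair. The windows run from 250 bases before the RefSeq start to 50 bases from it (GRCm38.p6, plus strand, chr8:94178839-94179138 for Mt1 and chr8:94172368-94172667 for Mt2), and capitals mark the core of the metal response element, TGCGCNC or TGCACNC, on either strand.
Mt1: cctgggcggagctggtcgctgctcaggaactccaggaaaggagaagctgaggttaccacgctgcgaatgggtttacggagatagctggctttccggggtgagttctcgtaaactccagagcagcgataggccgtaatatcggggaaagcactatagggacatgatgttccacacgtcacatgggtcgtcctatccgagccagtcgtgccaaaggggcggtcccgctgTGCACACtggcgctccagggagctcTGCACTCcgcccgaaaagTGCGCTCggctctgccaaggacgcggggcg
Mt2: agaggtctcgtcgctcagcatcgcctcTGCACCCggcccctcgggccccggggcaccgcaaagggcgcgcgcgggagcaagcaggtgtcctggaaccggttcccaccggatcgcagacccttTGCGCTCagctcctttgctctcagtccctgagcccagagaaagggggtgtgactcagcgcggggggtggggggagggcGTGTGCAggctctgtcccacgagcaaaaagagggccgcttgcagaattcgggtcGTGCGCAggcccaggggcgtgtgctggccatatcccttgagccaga
The Mt1 window holds 3 cores and the Mt2 window 4. Of 32544 RefSeq promoter windows of this length, 25.9% hold at least 1, 1.99% at least 3 and 0.522% at least 4. A match describes the letters only.

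Mt1 was at 185, 121 and 86.0 CPM in Con and at 640.1, 422 and 351 CPM in DSS, a log2 fold change of 1.85 (SE 0.39, edgeR adjusted p = 0.00796). Mt2 was at 2.12, 2.50 and 0.428 CPM in Con and at 14.2, 19.1 and 14.7 CPM in DSS, a log2 fold change of 3.25 (SE 0.79, edgeR adjusted p = 0.014). For both genes every DSS library was above every Con library. The counts of Mt2 are uncertain: 73.5% of its 588 exon bases lie under exons of the antisense gene Gm45774, which had 0 to 10 counts, and whether the counting used strand is not given in the sources used here. Mt1 CPM was 22.0 to 309.9 times Mt2 CPM, and this ratio was 22.0 to 44.9 in DSS and 48.3 to 201 in Con. The part of this overlap in the low Mt2 counts was not tested.

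Among the other genes of the pathway, a list of 62 in 8 roles, 18 were called in DSS against Con (14 higher, 4 lower), close to the 26.5% of all tested genes. The NRF2 gene itself and its inhibitor did not pass the test: Nfe2l2 was at 210.4 CPM in DSS and 207 CPM in Con (log2 fold change 0.02, SE 0.23, edgeR adjusted p = 0.957) and Keap1 at 61.3 and 62.5 CPM (-0.03, SE 0.15, adjusted p = 0.908). Of 8 regulators 2 rose, the small MAF gene Maff (51.8 against 23.1 CPM, log2 fold change 1.17, edgeR adjusted p = 0.00503) and the repressor Bach1 (114 against 63.3 CPM, 0.85, adjusted p = 0.00942). Mtf1, the metal sensor, was at 32.1 and 29.1 CPM (log2 fold change 0.14, edgeR adjusted p = 0.683).

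The glutathione genes held the most calls, 5 of 11, all higher, where 26.5% of all tested genes were called and 13.9% were called higher. Gpx3, the secreted glutathione peroxidase, rose from 68.3 to 324 CPM (log2 fold change 2.24, edgeR adjusted p = 0.00132), and Slc3a2, the heavy chain that partners Slc7a11 and other amino acid carriers, from 59.7 to 137 CPM (1.20, adjusted p = 0.00133). The superoxide dismutases Sod3 (extracellular, log2 fold change 2.73, edgeR adjusted p = 0.00346) and Sod2 (mitochondrial, 1.26, adjusted p = 0.00919) rose, as did both oxidative enzymes of the pentose phosphate pathway that make NADPH, G6pdx (0.88, adjusted p = 0.00588) and Pgd (0.65, adjusted p = 0.017). Cp, the copper ferroxidase ceruloplasmin, rose from 8.54 to 104 CPM (log2 fold change 3.60, edgeR adjusted p = 0.00133), the only call among 9 heme and iron genes.

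The falls were fewer. Of 11 thioredoxin and peroxiredoxin genes 2 fell and none rose: Txnip, which encodes an inhibitor of thioredoxin, from 716 to 408 CPM (log2 fold change -0.81, edgeR adjusted p = 0.031) and Txnrd3 from 12.8 to 7.55 CPM (-0.76, adjusted p = 0.0279). Cbr1, a carbonyl reductase, fell from 291 to 132 CPM (-1.14, edgeR adjusted p = 0.022) as the single call of 5 quinone, carbonyl and epoxide genes. Among 8 zinc and copper genes the zinc importer Slc39a14 rose (1.08, edgeR adjusted p = 0.00545) and Slc39a8 fell (-0.88, adjusted p = 0.0443, with overlapping groups), with 1 further rise. These falls stood close to the threshold: over 20 alternatives the call was lost in 13 for Slc39a8 (adjusted p up to 0.152), in 7 for Txnip (up to 0.0855, among them each Con or DSS library left out), in 6 for Txnrd3 (up to 0.101) and in 2 for Cbr1 (up to 0.0793). Of the rises named, Pgd and Sod2 were each lost in 1.

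Stromal markers moved with these genes. Of 6 fibroblast markers (Col1a1, Col1a2, Col3a1, Pdgfra, Dcn and Lum) 5 were called higher in DSS than in Con, with sums of 1068 to 1825 CPM in Con and 3197 to 6930 CPM in DSS. Of 4 endothelium markers (Pecam1, Cdh5, Kdr and Vwf) 3 were called higher, with sums of 124 to 169 CPM in Con and 223 to 338 CPM in DSS. The part of these cells in the rises of Sod3, Gpx3, Cp, Mt1 and Mt2 was not tested.

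UA+DSS against DSS asks whether these genes differ when UA is begun before DSS. Of the 10 members 3 fell in UA+DSS, Slc7a11, Hmox1 and Gpx2, and none rose, where 18.7% of all tested genes were called and 10.5% were called lower. The 3 are among the 6 that rose in DSS against Con, but both comparisons use the same DSS libraries. Groups did not overlap for 8 of the 10, against 42.8% of all tested genes. Nqo1, Gclc and Srxn1 had higher values in UA+DSS and were not called. The median log2 fold change was -0.58 over the members and -0.02 over all tested genes.

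Hmox1 in UA+DSS was at 11.6, 7.997 and 11.01 CPM, under every DSS library and above every Con library. The log2 fold change to DSS was -3.65 (SE 0.65, edgeR adjusted p = 0.0107), a level of 0.0797 times that of DSS. It was -2.30 without DSS 2, and not called without UA+DSS 2 (adjusted p = 0.0576, the highest of 20 alternatives that began at 6.19e-08). Slc7a11 in UA+DSS was at 7.38, 2.94 and 10.3 CPM, which overlaps Con and lies under every DSS library. Its log2 fold change was -4.23 (SE 0.92, edgeR adjusted p = 0.0158), and -2.32 without DSS 2. It was not called without UA+DSS 2 (adjusted p = 0.0726) or with only these groups fitted (0.058), over a range that began at 1.5e-06.

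The immune markers fell in the same libraries. All 7 neutrophil markers were called lower in UA+DSS than in DSS, with sums of 27.1, 34.9 and 121 CPM, and 5 of 10 monocyte and macrophage markers were called lower, with sums of 922, 556 and 419 CPM. Per 1000 CPM of the macrophage markers Hmox1 was 12.6, 14.4 and 26.3 in UA+DSS, and UA+DSS 3 then lay inside the range of DSS (20.0 to 73.8). The part of these cells in the lower Hmox1 and Slc7a11 was not tested further.

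Gpx2 in UA+DSS was at 448, 152 and 479 CPM, with UA+DSS 2 below every other library of the study and the other values above Con. The log2 fold change to DSS was -1.47 (SE 0.34, edgeR adjusted p = 0.0181), a level of 0.361 times that of DSS, and it was not called with only these groups fitted (adjusted p = 0.0664, over a range that began at 0.000406). Per 1000 CPM of the epithelium markers Gpx2 was 33.7, 10.1 and 29.4 in UA+DSS, all under the 80.4 to 137 of DSS. The summed absorptive colonocyte markers (Car1, Aqp8, Slc26a3, Krt20 and Cdhr5) were 7265 to 11783 CPM in UA+DSS and 843 to 3541 CPM in DSS.

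Nqo1 was at 83.0, 69.8 and 43.1 CPM in UA+DSS, and all 3 values were above those of DSS. Its log2 fold change of 1.00 (SE 0.39, edgeR adjusted p = 0.0967) did not pass the test. Gclc was at 103, 141 and 117 CPM (0.35, SE 0.16, edgeR adjusted p = 0.136) and Srxn1 at 213, 188 and 178 CPM (0.58, SE 0.37, adjusted p = 0.298), also above every DSS library. Gclm at 122, 121 and 123 CPM (-0.13, edgeR adjusted p = 0.566) and Txnrd1 at 387, 271 and 312 CPM (-0.38, adjusted p = 0.234) were not called.

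Mt2 was at 3.27, 1.25 and 4.94 CPM in UA+DSS, without overlap with DSS, and its log2 fold change of -2.34 (SE 0.75, edgeR adjusted p = 0.0522) lay at the threshold. It was called in 7 of the alternatives, among them DESeq2 (adjusted p = 0.00681) and limma-voom (0.029), and its range was 0.00681 to 0.168. Mt1 was at 152, 387 and 283 CPM, and UA+DSS 2 lay above DSS 3 (log2 fold change -0.78, SE 0.38, edgeR adjusted p = 0.173).

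With the colon position score as a covariate none of the 3 calls of UA+DSS against DSS held: the log2 fold changes were -3.89 for Hmox1 (edgeR adjusted p = 0.121), -4.14 for Slc7a11 (0.166) and -1.11 for Gpx2 (0.236). Of all tested genes 3 were called in that fit. The score was -5.70 to -4.16 in UA+DSS and 0.37 to 3.10 in DSS, and its part and that of UA cannot be told apart.

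Of the 62 other pathway genes 15 were called in UA+DSS against DSS, 6 higher and 9 lower, where 18.7% of all tested genes were called. Nfe2l2 (261 CPM, log2 fold change 0.31, edgeR adjusted p = 0.377), Keap1 (75.5 CPM, 0.30, adjusted p = 0.18), Bach1 (87.9 CPM, -0.37, adjusted p = 0.184) and Mtf1 (30.3 CPM, -0.08, adjusted p = 0.844) did not pass. Maff was the 1 call of 8 regulators and was lower (32.1 CPM, -0.69, edgeR adjusted p = 0.0472), but this call was lost in 12 of 20 alternatives (adjusted p up to 0.173, without DSS 2). The glutathione genes fell in 3 of 11 cases, led by Slc3a2 (68.1 against 137 CPM, -1.01, edgeR adjusted p = 0.00749) and the glutathione reductase Gsr (148 against 365 CPM, -1.31, adjusted p = 0.0157).

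Sod3 (25.9 against 139 CPM, log2 fold change -2.42, edgeR adjusted p = 0.0112), Cp (25.0 against 104 CPM, -2.05, adjusted p = 0.0122), G6pdx (-0.84, adjusted p = 0.0131) and Slc39a14 (-1.26, adjusted p = 0.0092) also fell in UA+DSS. There were also rises. Txnip went from 408 to 819 CPM (1.01, edgeR adjusted p = 0.02), Cat, which encodes the peroxisomal catalase, from 61.3 to 105 CPM (0.77, adjusted p = 0.0163), and Slc40a1, the iron exporter ferroportin, from 87.2 to 199 CPM (1.19, adjusted p = 0.0189). Cbr1 (1.02, edgeR adjusted p = 0.043) and Slc39a8 (1.36, adjusted p = 0.0147) rose as well. Over 20 alternatives the call was lost in 9 for Cbr1 (adjusted p up to 0.128), in 4 for Txnip, in 3 for Cat, in 2 each for Gsr and Slc40a1 and in 1 each for G6pdx, Cp and Slc39a8 (up to 0.0838). In the same libraries 4 of the 6 fibroblast and 3 of the 4 endothelium markers were called lower than in DSS, with sums of 609 to 1636 and 108 to 133 CPM, and their part in the falls was not tested.

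DSS+UA against DSS asks the same of UA begun after DSS. Of the 10 members 1 fell, Hmox1, and none rose, which is close to the 7.54% of all tested genes called and the 5.0% called lower. Groups did not overlap for 5 of 10, against 34.7% of all tested genes. Hmox1 was at 19.1, 28.0 and 20.5 CPM in DSS+UA, under all DSS libraries and above all UA+DSS libraries. Its log2 fold change to DSS was -2.51 (SE 0.62, edgeR adjusted p = 0.041), a level of 0.176 times that of DSS.

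This call rested on single libraries and settings. Without DSS 2 the log2 fold change was -1.15 (adjusted p = 0.0617), and the call was lost in 12 of 20 alternatives, including limma-voom (0.0539), no filter (0.1) and the leaving out of any 1 DSS+UA library (0.0827 to 0.132), over a range of 0.0005 to 0.132. With the position score as a covariate it was -2.39 (adjusted p = 0.0939). Monocyte and macrophage markers were at 586, 1645 and 731 CPM in DSS+UA with none of 10 called against DSS, and Hmox1 per 1000 CPM of them was 32.5, 17.0 and 28.0, which overlaps DSS.

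Slc7a11 was at 24.1, 9.22 and 24.2 CPM in DSS+UA, below every DSS library, with a log2 fold change of -2.75 (SE 0.85, edgeR adjusted p = 0.0689). Without DSS 2 it was -0.83. The neutrophil markers of these libraries were at 1014, 399 and 994 CPM, and DSS+UA 2 had both the lowest Slc7a11 and the lowest neutrophil sum of the group. Mt1 at 275, 223 and 160.3 CPM (-1.10, SE 0.39, edgeR adjusted p = 0.0891) and Mt2 at 12.3, 4.33 and 1.72 CPM (-1.39, SE 0.73, adjusted p = 0.224) lay below every DSS library and were not called.

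Gpx2 was the only member with its highest level in DSS+UA beyond the spread of the other groups, at 1707, 1722 and 1639.7 CPM. All 3 values were above every DSS library, but the log2 fold change of 0.76 (SE 0.34, edgeR adjusted p = 0.159) was not called. This SE comes from the fit of all 4 groups. The SD of log2 CPM of Gpx2 was 0.10 in DSS and 0.04 in DSS+UA, against 0.17 in Con and 0.93 in UA+DSS. Gpx2 was also not called when only DSS+UA and DSS were fitted. The epithelium sums were 15566, 23759.6 and 18507 CPM in DSS+UA, with 4 of 8 markers called higher than in DSS, and Gpx2 per 1000 CPM of them was 110, 72.5 and 88.6, which overlaps the 80.4 to 137 of DSS. Nqo1 (0.16), Gclc (0.03), Gclm (0.04), Txnrd1 (-0.03) and Srxn1 (0.26) had log2 fold changes whose 95% intervals all held 0.

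**Figure D3:**
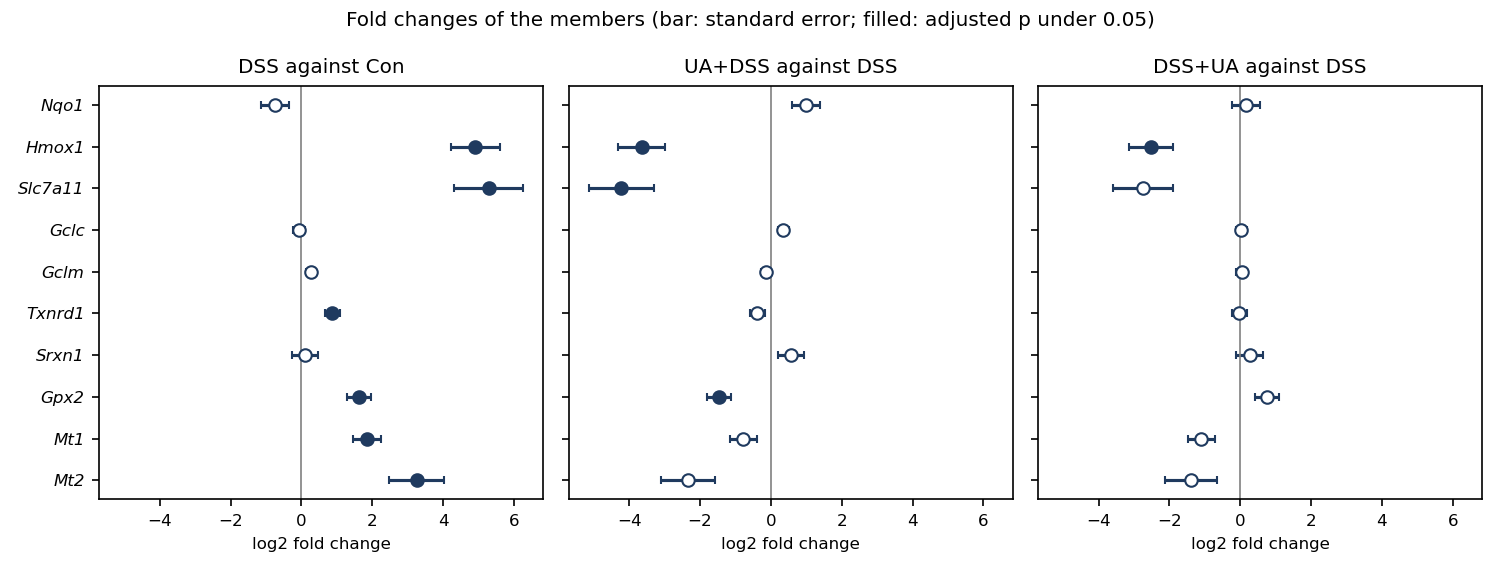
Log2 fold change of each member (bars are the standard error, filled points have an adjusted p under 0.05) in DSS against Con and in both UA groups against DSS, which share the DSS libraries. Hmox1 (4.91) and Slc7a11 (5.29) lie farthest to the right in DSS against Con and farthest to the left in both UA comparisons, Gpx2 is at -1.47 and 0.76 in these, and Gclc and Gclm stay near 0.

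Of the 62 other genes 6 were called in DSS+UA against DSS, 2 higher and 4 lower, close to the 7.54% of all tested genes called. Slc39a14 (33.4 against 108 CPM, log2 fold change -1.70, edgeR adjusted p = 0.00418), Cp (23.7 CPM, -2.13, adjusted p = 0.0202), Slc3a2 (81.6 CPM, -0.75, adjusted p = 0.023) and Gpx3 (144 CPM, -1.17, adjusted p = 0.0289) fell. The mitochondrial thioredoxin gene Txn2 (222 against 136 CPM, 0.70, edgeR adjusted p = 0.0261) and the peroxiredoxin gene Prdx2 (278 against 163 CPM, 0.77, adjusted p = 0.0401) rose. Over 20 alternatives the call was lost in 11 for Prdx2 (adjusted p up to 0.124), in 5 each for Txn2 and Gpx3, in 3 for Slc3a2 and in 2 for Cp (up to 0.112). Of the fibroblast markers 2 of 6, and of the endothelium markers 4 of 4, were called lower in DSS+UA than in DSS, with sums of 949 to 2340 and 78.7 to 89.1 CPM, and their part in the falls was not tested. Nfe2l2 (158 CPM, -0.41, edgeR adjusted p = 0.263), Keap1 (80.0 CPM, 0.38, adjusted p = 0.117), Bach1 (74.3 CPM, -0.61, adjusted p = 0.0642) and Mtf1 (36.4 CPM, 0.18, adjusted p = 0.64) were not called.

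**Figure D4:**
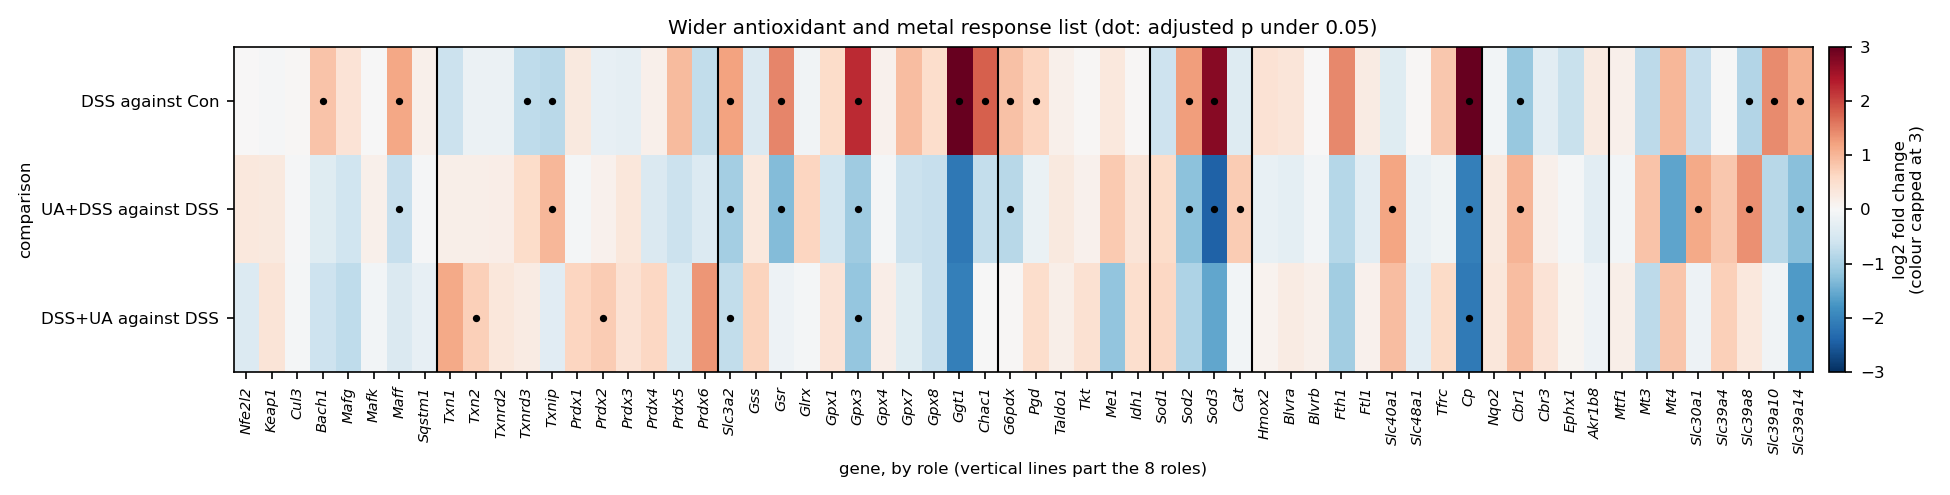
Log2 fold change (colour, capped at 3 in either direction) of the 62 other pathway genes, parted into 8 roles by vertical lines, in DSS against Con and in both UA groups against DSS. Dots mark an adjusted p under 0.05: there are 18, 15 and 6 of them, and Slc3a2, Gpx3, Cp and Slc39a14 have one in all 3 comparisons.

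In UA+DSS against Con none of the 10 members was called by edgeR, DESeq2 or limma-voom, with 2 at an unadjusted p under 0.05, where 0.00566% of all tested genes were called. All 10 had higher values than in Con, from a log2 fold change of 0.14 for Gclm (SE 0.15) to 1.26 for Hmox1 (SE 0.62, edgeR adjusted p = 0.449), though Gpx2 (0.15) was at -0.02 with limma-voom, and only Hmox1, 1 of the 10, did not overlap, against 20.6% of all tested genes. Of the 62 other genes none was called by edgeR, 12 were at an unadjusted p under 0.05 and DESeq2 called 2. Nfe2l2 (0.33), Keap1 (0.27), Bach1 (0.47) and Mtf1 (0.06) had adjusted p of 0.361 to 0.929.

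In DSS+UA against Con 3 members rose, Gpx2 (log2 fold change 2.38, SE 0.36, edgeR adjusted p = 0.00504), Hmox1 (2.40, SE 0.64, adjusted p = 0.0286) and Txnrd1 (0.84, SE 0.21, adjusted p = 0.0242), where 18.1% of all tested genes were called and 9.13% were called higher. Txnrd1 was at 390.0, 431 and 415 CPM in DSS+UA, above every Con library. Slc7a11 (2.54, SE 0.88, edgeR adjusted p = 0.0672) did not overlap with Con and was not called. Groups did not overlap for 4 of the 10, against 38.9% of all tested genes. The Hmox1 call was lost without any 1 Con or DSS+UA library and with limma-voom or no filter (adjusted p up to 0.0849, over a range that began at 0.000637) and the Txnrd1 call without Con 1, Con 3, DSS+UA 2 or DSS+UA 3 and with only these groups fitted (up to 0.07, from 0.00217), while Gpx2 was called in each alternative, with an adjusted p of at most 0.0232. Of the 62 other genes 14 were called, 13 higher and 1 lower, and Nfe2l2 (-0.39), Keap1 (0.36), Bach1 (0.23) and Mtf1 (0.32) were not.

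DSS+UA and UA+DSS, compared with each other, differed in 1 of the 10 members, where 16.8% of all tested genes were called and 9.23% were called higher in DSS+UA. Groups did not overlap for 5 of the 10, against 45.3% of all tested genes. Gpx2 was higher in DSS+UA by a log2 fold change of 2.23 (SE 0.35, edgeR adjusted p = 0.00748), or 4.70-fold, and was called in all 20 alternatives (adjusted p up to 0.0347). With the position score as a covariate it was 1.71 (adjusted p = 0.351), in a fit that called 0 of all tested genes. Hmox1 (1.14, SE 0.60, edgeR adjusted p = 0.214) did not overlap between these groups and was not called, and neither was Nqo1 (-0.84, SE 0.39, adjusted p = 0.157).

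The order of group means shows which members separate the groups. Hmox1 ran DSS, DSS+UA, UA+DSS, Con from high to low, at 128 ± 135, 22.5 ± 4.79, 10.2 ± 1.94 and 4.26 ± 1.61 CPM (SD, n = 3), and no neighbours in that order overlapped. Gpx2 ran DSS+UA, DSS, UA+DSS, Con, at 1689.7 ± 44.0, 996 ± 70.4, 359.8 ± 181 and 325 ± 38.4 CPM (SD, n = 3), and only UA+DSS and Con overlapped. Slc7a11 and Mt2 had the order of Hmox1 with only DSS set apart from its neighbour. Nqo1 and Gclc ran UA+DSS, Con, DSS+UA, DSS with overlap at every step, and Nqo1 means were 65.3 ± 20.3, 54.4 ± 22.1, 36.4 ± 17.0 and 32.6 ± 9.04 CPM (SD, n = 3). Srxn1 and Mt1 also overlapped at every step.

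Between genes, levels can be set side by side only per length. In CPM per kilobase of annotated exon, Mt1 (105) and Gpx2 (101) were the highest of the 10 in Con, followed by Srxn1 (43.0), Nqo1 (35.0), Txnrd1 (32.6), Gclc (26.3) and Gclm (17.6), with Mt2 (2.86), Hmox1 (2.43) and Slc7a11 (0.237) at the bottom. In DSS Mt1 (378) and Gpx2 (309) were again the highest. Hmox1 had a mean of 73.2 per kilobase in DSS that rested on DSS 2, with 29.9, 162 and 27.6 in the 3 libraries, and in DSS 1 and DSS 3 it lay below Txnrd1 (48.96 and 55.3) and Srxn1 (39.1 and 54.5). In DSS+UA Gpx2 was the highest at 524 per kilobase. The exon model of Slc7a11 has 13922 bases, the longest of the 10, which lowers its value on this scale. The exon models of Gpx2 (3222 bases) and Mt1 (1246 bases) cover the whole span of the gene, so their values may also be too low.

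The genes whose profile over the 12 libraries was most like that of a member, by the mean absolute difference of log2 CPM after each gene was centred on its own mean, were not other members. For Hmox1 they were Slc15a3 (0.24) and Ifitm1 (0.26), with Slc7a11 as the nearest member at 0.54 (rank 108 among the tested genes). For Slc7a11 they were Rab44 (0.40) and Bst1 (0.41), with Hmox1 as the nearest member at 0.54 (rank 25). For Gpx2 they were Rrm2 (0.26) and Thpo (0.27), with Txnrd1 as the nearest member at 0.70. For Mt1 they were Ddit4 (0.25) and Cadm4 (0.34), and for Mt2 Bdkrb1 (0.55) and Itih4 (0.59), with Mt1 as the nearest member at 0.84 (rank 219).

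The other members, whose levels ranged less over the libraries, had closer neighbours. For Nqo1 these were Stard5 (0.18) and Arl4a (0.18), for Srxn1 Gm10093 (0.09) and Ubxn2a (0.13), and for Txnrd1 Cap1 (0.09) and Capza1 (0.09). For Gclc they were Josd1 (0.09) and Smarcc2 (0.09), and for Gclm Cnot2 (0.08) and Fam104a (0.08). Gclc and Gclm were each other's nearest member at 0.21, and the ratio of Gclc to Gclm CPM was 0.569 in DSS 2 and 1.17 in UA+DSS 2, the lowest and the highest of the 12 libraries. These measures share libraries and depth and are given as a description.

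Promoter windows were found for 8 of the 10 members, all but Hmox1 and Gclc, with 3 windows for Txnrd1. The core of the antioxidant response element, TGACNNNGC on either strand, was found in 12.4% of the 32544 windows, in 19.7% of the 76 windows of the other pathway genes and in 4 of the 10 member windows. These 4 matches are shown because the textbook account of NRF2 turns on such letters. Capitals mark the match as read along the gene's own strand, and in Gclm, Txnrd1 and Srxn1 the core lies on the opposite strand.
Gclm: GCACCGTCA
Txnrd1: GCTTTGTCA
Srxn1: GCTAGGTCA
Mt2: TGACTCAGC
Their first bases lie at -134 (Gclm), -92 (the second of 3 Txnrd1 starts), 28 (Srxn1) and -79 (Mt2) from the RefSeq start. The match in Mt2 begins with the letters of an AP-1 site, and that in Gclm overlaps a core of the metal response element. Besides the metallothioneins, Gclm held 3 metal response cores and Srxn1 held 1. Neither core was in the windows of Nqo1, Slc7a11 or Gpx2. The windows reach 250 bases before the start and 50 from it, so elements farther away were not searched and a gene without a match may still have one. Of the 6 members that rose in DSS, Txnrd1 and Mt2 held the antioxidant core, and of the 4 not called Gclm and Srxn1 did. Hmox1, among the 6, and Gclc, among the 4, had no window and were not searched.

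**Figure D5:**
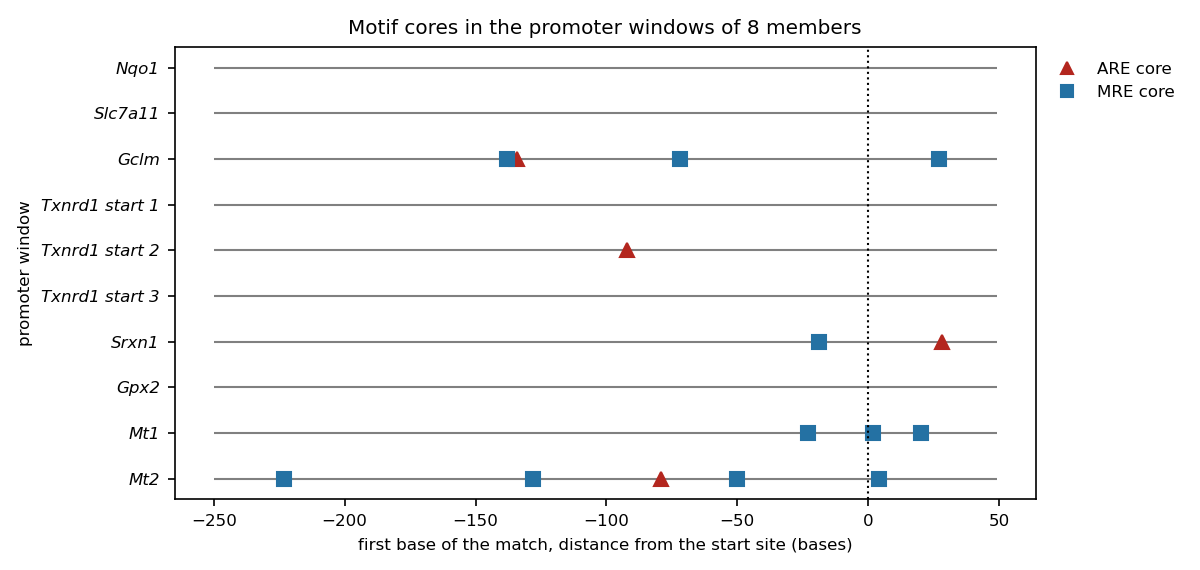
First base of each match to the antioxidant response core (ARE, triangles) and the metal response core (MRE, squares) in the 10 promoter windows of 8 members, by distance from the start site in bases. The Mt1 and Mt2 windows hold 3 and 4 MRE cores, and the windows of Nqo1, Slc7a11 and Gpx2 hold neither core.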

How the data were processed

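The files hold whole-number read counts per Ensembl gene, deposited by the authors without normalization. Per the methods and the submitters' processing notes, reads (HiSeq-2500) were inspected with FastQC, mapped to GRCm38 and counted with HISAT2, and Cuffdiff is named. The sources used here do not give versions, the annotation release or the use of strand. For RNA, the labels name Trizol and the methods the RNeasy kit. Groups and replicate numbers came from the sample titles, and values of libraries of 1 group differed by far more than sampling noise.

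In R 4.3.3, counts of the 17658 genes that passed filterByExpr were fitted with edgeR 4.0.16, as 1 quasi-likelihood model of group with robust settings and TMM factors over the 12 libraries. Genes were called at a Benjamini-Hochberg adjusted p under 0.05 over all of them. Symbols, positions and overlaps are from the GENCODE annotation of GRCm38, where 37 genes with 0.00364% of the counts had no name. Overlap and shared stretches of 50 bases were checked for the members only. Log2 CPM used a prior count of 2. Scripts were tested on simulated data.

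The members, the 62 other pathway genes and the marker lists were chosen with earlier results of these data known. Of the 62, Nfe2l2, Keap1, Bach1 and Mtf1 were named throughout, and per role the 2 called genes of the smallest p in each comparison with DSS. For likeness, the 2 closest tested genes outside the members were named. Alternatives were DESeq2 1.42.0, limma-voom (limma 3.58.1), library size only, upper-quartile factors, no filter, at least 10 counts in every library, a fit limited to the groups compared, a replicate block, the colon position score (taken over from an earlier analysis) and leaving out each library.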

Additional observations from a re-analysis of the deposited data

Results flagged for a closer look

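Gpx2 differed between the UA groups, which differ in the start of UA and in its length (7 days in UA+DSS, 4 in DSS+UA). The effect of UA begun after DSS minus that of UA begun before DSS was 2.23 on the log2 scale (edgeR adjusted p = 0.00748). It came from 0.76 and -1.47 against the shared DSS libraries, and all 3 DSS+UA libraries were above all 3 UA+DSS libraries. The parts of start and length cannot be told apart. Of the 62 other pathway genes 15 were called in this comparison, where 16.8% of all tested genes were called, and 28 did not overlap between the UA groups, against 45.3% of all tested genes. Of these 15, 8 had been named for their calls against DSS. The effect of the later UA was lower for Txnip (a difference of -1.35, edgeR adjusted p = 0.00844), Slc39a8 (-1.04, adjusted p = 0.0333) and Cat (-0.84, adjusted p = 0.0122). It was higher for Gsr by 1.16 (edgeR adjusted p = 0.0226), for G6pdx by 0.89 (adjusted p = 0.0101), for Pgd by 0.73 (adjusted p = 0.0172), for Prdx2 by 0.64 (adjusted p = 0.0428) and for Txn2 by 0.54 (adjusted p = 0.0326). Over 20 alternatives the call was lost in 11 for Prdx2 (adjusted p up to 0.147), 7 for Txn2, 6 for Slc39a8, 5 for Gsr, 3 for Pgd and 1 each for G6pdx and Cat. The colon position score did not overlap between these groups, and none of the 9 differences was called with the score as a covariate. That fit called 0 of the 17658 tested genes, so it says nothing particular to these 9. Groups of 3 were not tested for outlying libraries.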

How the results depend on the processing

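With 3 mice a group, 1 library can end a call. Leaving out each library gave 6 to 6 called members in DSS against Con, 1 to 4 in UA+DSS against DSS (1 without UA+DSS 2), 0 to 2 in DSS+UA against DSS, 0 to 0 in UA+DSS against Con, 1 to 4 in DSS+UA against Con (1 without Con 1, Con 3, DSS+UA 2 or DSS+UA 3) and 1 to 3 in DSS+UA against UA+DSS (3 without DSS 2). For the 62 other genes it gave 14 to 19, 3 to 16 (8 without DSS 1, 3 without UA+DSS 2), 1 to 12 (12 without Con 1, 3 without DSS 2, 1 without DSS+UA 2 or 3), 0 to 0, 7 to 18 (9 without Con 2 or Con 3, 7 without DSS+UA 3) and 2 to 17 (2 without UA+DSS 2, 5 without UA+DSS 1 or DSS+UA 3, 9 without UA+DSS 3 or DSS+UA 2).

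In UA+DSS against DSS the position score left 0 members and 0 other genes called, and a fit of only these groups 8 other genes. In DSS+UA against DSS, DESeq2 called 3 members and 18 other genes, and limma-voom, no filter, only these groups, the replicate block and the position score 0 members, and other genes were 12 with at least 10 counts and 1 with the position score. DESeq2 called 2 other genes in UA+DSS against Con, and 5 members and 22 other genes in DSS+UA against Con, where the position score left 8 other genes. In DSS+UA against UA+DSS only these groups gave 2 members, and the position score 0 members and 0 other genes, as it did 0 of all tested genes.

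No pairing of the mice by replicate number was seen (correlations of same-numbered libraries -0.22 to 0.19, over 0.1 in 5 of 18 pairs, with 5 of 12 libraries closest to their own number). Groups of 3 are small, so this check can miss a pairing. With the replicate block the member counts were 6, 3, 0, 0, 3 and 1, so 1 call differed.

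Values near 0 changed sign. In DSS against Con Nfe2l2 was -0.0043 (limma-voom) and -0.013 (upper quartile), Gclc 0.017 (library size) and Keap1 0.060 (library size), 0.0018 (only these groups) and 0.022 (position). In DSS+UA against DSS library size gave Nqo1 -0.015, Gclc -0.11 and Gclm -0.089 as the median of all genes moved from 0.02 to -0.11, and Gclc was -0.0075 (upper quartile) and -0.013 (only these groups). Gpx2 in UA+DSS against Con was -0.023 (limma-voom). The position score turned Srxn1 (-0.73) and Nfe2l2 (-0.13) in UA+DSS against DSS, Txnrd1 (0.13) in DSS+UA against DSS, Nqo1 (-0.34) and Srxn1 (-0.17) in UA+DSS against Con, Nqo1 (0.062) and Gclc (0.083) in DSS+UA against Con, and Nqo1 (0.40), Srxn1 (1.61) and Slc39a8 (0.12) in DSS+UA against UA+DSS. Leaving out libraries gave Srxn1 -0.29 to 0.54, Nfe2l2 -0.26 to 0.18, Mtf1 -0.083 to 0.30, Gclc -0.14 to 0.045 and Keap1 -0.14 to 0.057 in DSS against Con, Mtf1 -0.19 to 0.066 in UA+DSS against DSS, Nqo1 -0.28 to 0.41, Gclc -0.020 to 0.11, Gclm -0.00043 to 0.15 and Txnrd1 -0.14 to 0.17 in DSS+UA against DSS, Gpx2 -0.12 to 0.51 in UA+DSS against Con, Gclc -0.097 to 0.074 and Srxn1 -0.024 to 0.80 in DSS+UA against Con, and Mt1 -0.61 to 0.012 and Mt2 -0.050 to 1.4 in DSS+UA against UA+DSS. The causes were not tested.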
